A study of Mus musculus with 7 samples.

Results

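The detergent effect in glucosylceramide-fed skin was read from the 7 RNA samples of GC-fed mice in this series, among 14 samples measured as the separate channels of 7 dual-colour arrays. The labels call the samples of a group biological replicates and do not say whether each came from 1 mouse or from a pool. On each array the other channel held skin of mice fed the same diet without glucosylceramide (control-fed). All animals were male HR-1 mice, a hairless strain, labelled 5 weeks old and kept on AIN-93G rodent diet; the GC-fed mice received it with glucosylceramide (GC) added. The 3 samples before SDS were dorsal skin that had received no detergent, taken after 12 days of the diet. The 4 samples after SDS came from skin on the right side of the back that had been exposed to sodium dodecyl sulfate (SDS) at 10% for 5 minutes daily on 2 days, and were collected at 14 days of diet. The 2 groups thus also differ by 2 days of age and of feeding. The GC-fed sample carried Cy3 on before-SDS array 1 and on after-SDS arrays 1 and 2, and Cy5 on the other 4 arrays. The 3 before-SDS arrays shared a slide and a scan, the 4 after-SDS arrays shared another, and 0 slides held both groups, so that an effect of SDS and an effect of the slide cannot be told apart in any result that follows.

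GC consists of ceramide joined to glucose, and the epidermis converts it to ceramide while building its outer barrier. SDS is an anionic detergent that strips lipids and proteins from the horny layer, and skin answers such damage by making new barrier lipids, by release of stored cytokines and by division of keratinocytes. Dorsal skin holds, besides epidermis, hair follicles, sebaceous glands, dermis, fat and a thin sheet of striated muscle. A hair follicle cycles between growth, when matrix cells divide and fill with hair keratins and keratin-associated proteins, and rest. In HR-1 mice the first coat is lost and the follicles are malformed. Because whole skin was measured, fewer cells of a type and less RNA per cell cannot be told apart.

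In the GC-fed channels 48.5% to 62.8% of the 43379 spots that were not controls were well above background, and 0 were saturated. The median spot brightness was 178.5 to 237.5 over a local background of 56 to 59. Levels of the GC-fed channels correlated across genes, which are not independent replicates, at r = 0.992 to 0.996 among the before-SDS arrays, at 0.979 to 0.991 among the after-SDS arrays and at 0.976 to 0.989 between the groups. Epidermal keratins Krt5, Krt14, Krt1 and Krt10 were well above background in every GC-fed channel in which their spot was kept. After-SDS array 4 stood apart in its diet ratio (log2 of GC-fed over control-fed), which correlated with that of after-SDS arrays 1, 2 and 3 at r = -0.50, -0.62 and -0.31. The diet ratio of before-SDS array 1, the only Cy3 sample of its group, correlated with that of before-SDS arrays 2 and 3 at r = -0.40 and -0.18. The methods in the labels state the dyes, so the labelled channels were kept on both arrays. Counts over all genes are given also without array 4 and with its channels exchanged, and some lists are given without array 4. Calls of single genes in these settings are not given for each gene and may differ. Before-SDS array 1 was left out in turn, and its channels were not exchanged.

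The question asked of these samples is which transcripts of GC-fed skin differed 2 days after the start of detergent exposure. Hair shaft genes made up most of the largest rises. The falls that passed were of single genes, while most members of their lists did not pass. Among them were Cd207 of Langerhans cells, Scd3 of the sebaceous gland, myoglobin and a few other muscle genes, and Ccl27a, a keratinocyte chemokine. Every sample after SDS lay below every sample before for 9 of 17 clock genes and 7 of 19 dendritic and Langerhans cell markers (12.4% of all genes). Values are levels, given as log2 normalised intensity, and differences, given as log2 fold changes of after over before SDS from limma with the dye as a term. A gene passed when its p-value, after Benjamini-Hochberg adjustment across all 16469 genes of the test, was under 0.05. In all, 233 genes passed (1.41%), 113 higher (0.686%) and 120 lower (0.729%) after SDS, with adjusted p between 0.0386 and the threshold. The groups did not overlap, higher after SDS, for 1843 genes (11.2%) and, lower, for 2039 genes (12.4%). These counts depended on the scaling: with channels set to equal medians they were 141 and 187, and with Agilent's processed signals 1724 and 1488. In the authors' deposited gene-level intensities, with 10141 genes tested, they were 945 and 519. The median difference over all genes tested was -0.002 and the median standard error (SE) 0.11.

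Single-gene calls in this comparison of 4 against 3 were few and fragile. With any 1 of the before-SDS arrays or of after-SDS arrays 1 and 2 left out, 0 genes passed (limma, lowest adjusted p 0.0701 to 0.124; 3663 genes had an unadjusted p under 0.05 with all 7 arrays), which holds for every call named here, although all 233 kept their direction each time. Without after-SDS array 3, 66 genes passed, and without array 4, 595 did. A fit of all 14 channels, in which the control-fed samples help to estimate the spread, called 2309 genes for the same contrast (1060 higher, 6.45%, and 1249 lower, 7.61%), 227 of the 233 among them, and from 569 (without before-SDS array 2) to 2788 (without after-SDS array 4) with 1 array left out. Other scalings moved the split between higher and lower calls: Agilent's own processed signals gave 11 higher and 3 lower, and the authors' deposited gene-level intensities gave 52 higher and 10 lower.

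**Figure D1:**
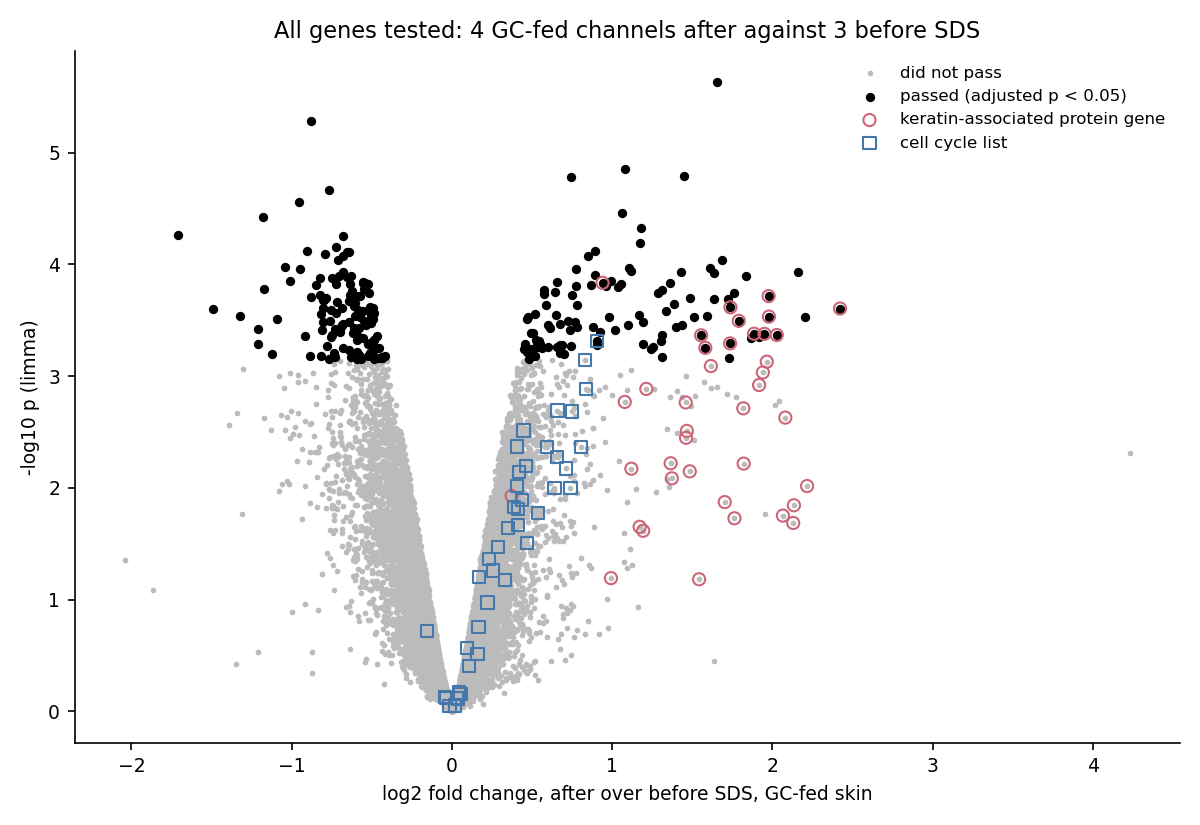
Each dot is 1 of the 16469 genes, placed by its log2 fold change after over before SDS in GC-fed skin (horizontal axis) and by -log10 of limma's unadjusted p (vertical axis); black dots passed at an adjusted p under 0.05, red circles mark keratin-associated protein genes and blue squares the cell cycle list. The keratin-associated protein genes, with a median of 1.74, all lie to the right of 0, and 38 of the 42 cell cycle genes do.

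To show the promoters of genes that passed from the hair shaft, cell cycle and clock lists, the stretch just upstream of the start of 4 of them is printed here, 250 bases from RefSeq's GRCm38.p6 table, 5′ to 3′ on the gene's strand. The arrays' files name no genome build. Capitals mark the TATA box motif TATAAA in the first pair, hair shaft genes that rose, the CCAAT box motif CCAAT in Aurka, a mitotic kinase that rose, and the E-box motif CACGTG in Tef, a clock output factor that fell.
Krtap4-13, chr11:99809897-99810146, minus strand: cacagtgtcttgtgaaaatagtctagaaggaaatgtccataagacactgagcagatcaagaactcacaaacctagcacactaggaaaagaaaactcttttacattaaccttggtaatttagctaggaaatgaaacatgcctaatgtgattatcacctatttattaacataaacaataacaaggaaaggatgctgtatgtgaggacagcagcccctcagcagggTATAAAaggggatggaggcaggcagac
Krt31, chr11:100050552-100050801, minus strand: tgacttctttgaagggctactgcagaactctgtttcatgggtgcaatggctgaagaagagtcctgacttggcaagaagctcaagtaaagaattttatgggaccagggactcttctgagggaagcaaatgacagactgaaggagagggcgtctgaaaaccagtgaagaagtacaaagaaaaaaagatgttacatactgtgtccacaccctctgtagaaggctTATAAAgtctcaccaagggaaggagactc
Aurka, chr2:172370571-172370820, minus strand: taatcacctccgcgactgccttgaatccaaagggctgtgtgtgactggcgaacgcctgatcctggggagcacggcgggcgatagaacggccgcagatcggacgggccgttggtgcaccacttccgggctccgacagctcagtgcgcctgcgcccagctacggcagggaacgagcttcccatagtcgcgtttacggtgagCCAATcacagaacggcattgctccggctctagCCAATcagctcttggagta
Tef, chr15:81802423-81802672, plus strand: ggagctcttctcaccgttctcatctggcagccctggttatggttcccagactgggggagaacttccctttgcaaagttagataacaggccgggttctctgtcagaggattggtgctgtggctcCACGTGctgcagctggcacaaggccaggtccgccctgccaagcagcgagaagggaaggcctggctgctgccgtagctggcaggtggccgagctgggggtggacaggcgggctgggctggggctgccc

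Each motif was searched on both strands, and the motifs share no bases with each other. TATAAA was found in the 250 bases upstream of 28 of the 36 measured keratin-associated protein genes with an entry (77.8%) and of 12 of 21 hair follicle genes (57.1%), against 13% of all 27025 promoters. In Krtap4-13 the motif began 27 bases, and in Krt31 29 bases, before the annotated start. CCAAT was found upstream of 24 of 33 cell cycle genes (72.7%) against 34.5% of all, and CACGTG upstream of 5 of 14 clock genes (35.7%) against 6.05% of all. The motifs were not particular to these lists: CCAAT was found upstream of 11 of 14 clock genes (78.6%), a higher share than in the cell cycle list. Among genes that passed with an entry, CCAAT was found upstream of 36.1% of those higher and 32.2% of those lower after SDS, CACGTG of 8.43% and 8.05%, and TATAAA of 22.9% and 3.45%. The genes higher after SDS include the keratin-associated protein and hair follicle genes that rose, so their TATAAA share is not separate from that of these lists. These are matches of letters only, and neighbouring keratin-associated protein genes can have similar sequence.

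Many hair follicle markers rose. Of 29 measured hair follicle markers 12 rose (0.686% of all genes did), 0 fell, and 26 did not overlap higher (11.2% of all genes). Their median difference was 1.61. The keratin-associated proteins, which fill the space between keratin filaments of the shaft, were taken as a whole family: 39 of 41 on the array passed the filter on dim probes, 12 of them rose, 35 did not overlap, and their differences ran from 0.37 to 2.42 with a median of 1.74. In the 14-channel fit 21 of the 29 and 27 of the 39 rose, against 6.45% of all genes. Krtap3-1, Krtap8-1, Krtap6-2 and Krtap4-16 stood in both the hair follicle and the keratin-associated protein list, so the lists share members. Paralogs of the keratin-associated protein family are similar in sequence, and hybridisation between them could not be separated here.

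Krt85, a type II hair keratin of the matrix and cortex, had the smallest p of all hair genes. Its level was 11.55, 10.93 and 11.39 on before-SDS arrays 1 to 3 and 13.18, 13.07, 12.95 and 12.77 on after-SDS arrays 1 to 4. Every sample after SDS lay above every sample before, and the gap between the groups was larger than the spread within either. Krt85 rose by 1.65 (SE 0.13, 3.14-fold, limma adjusted p = 0.0386), and with 1 array left out the difference ran from 1.53 to 1.75.

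Krt35, its type I counterpart in the hair cortex, was at 12.60, 11.38 and 12.31 before and at 14.10, 14.44, 14.67 and 13.99 after SDS. It rose 4.48-fold (2.16, SE 0.29, limma adjusted p = 0.0423), the groups did not overlap, and before-SDS array 2 was the lowest. Krt31, another type I hair keratin, rose by 1.91 (SE 0.32, limma adjusted p = 0.0452), from levels of 9.94 to 10.79 to levels of 11.65 to 12.82.

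Krtap4-13, a high-sulfur keratin-associated protein whose upstream sequence is printed above, had the largest difference among genes that passed. Its level was 10.96, 9.93 and 9.49 before and 12.29, 12.45, 13.23 and 12.39 after SDS. Before-SDS array 1 was the highest of its group and after-SDS array 3 the highest of all, and the groups did not overlap. The difference was 2.42 (SE 0.37, 5.36-fold, limma adjusted p = 0.0423), and from 2.04 to 3.1 with 1 array left out. Krtap4-2 rose by 2.03, Krtap26-1 by 1.98, Krtap5-4 by 1.98, Krtap13-1 by 1.95 and Krtap12-1 by 1.89, with SE between 0.29 and 0.34. In each of them before-SDS array 1 was the highest of the before group, and array 3 the highest after SDS.

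The same shape over arrays held for the family's mean level, which was 10.80, 9.79 and 9.59 before and 11.51, 11.52, 12.50 and 11.40 after SDS. Among the Cy5 channels alone, 2 before and 2 after, the family's median difference was 2.24 and that of the hair follicle markers 1.88, with 0 genes passing among all in that smaller fit (lowest adjusted p 0.238); leaving out before-SDS array 1 gives the same differences, because it was the only Cy3 sample of its group. Without after-SDS array 4 the medians were 1.84 and 1.67, with 18 and 19 genes that rose, where 339 of all 16468 genes rose. Without after-SDS array 3 they were 1.25 and 1.32, with 12 and 8 genes that rose, where 53 of all 16469 genes rose.

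Padi3, another hair follicle marker that rose, is a peptidylarginine deiminase that modifies trichohyalin. Its level was 11.40, 10.52 and 11.04 before and 12.66, 12.60, 13.05 and 12.50 after SDS. It rose by 1.68 (SE 0.22, limma adjusted p = 0.0423), with no overlap of the groups. Sct, which encodes the hormone secretin, was at 9.65, 8.58 and 9.12 before and at 10.92, 11.50, 12.03 and 10.92 after, a rise of 2.20 (SE 0.34, 4.60-fold, limma adjusted p = 0.0423). Fbp1, a fructose bisphosphatase of gluconeogenesis, rose by 1.86 (SE 0.31, limma adjusted p = 0.0456), from 10.98 to 11.82 before to 12.75 to 13.85 after. Neither Sct nor Fbp1 stood in a list used here, and whether follicle cells were their source was not tested.

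**Figure D2:**
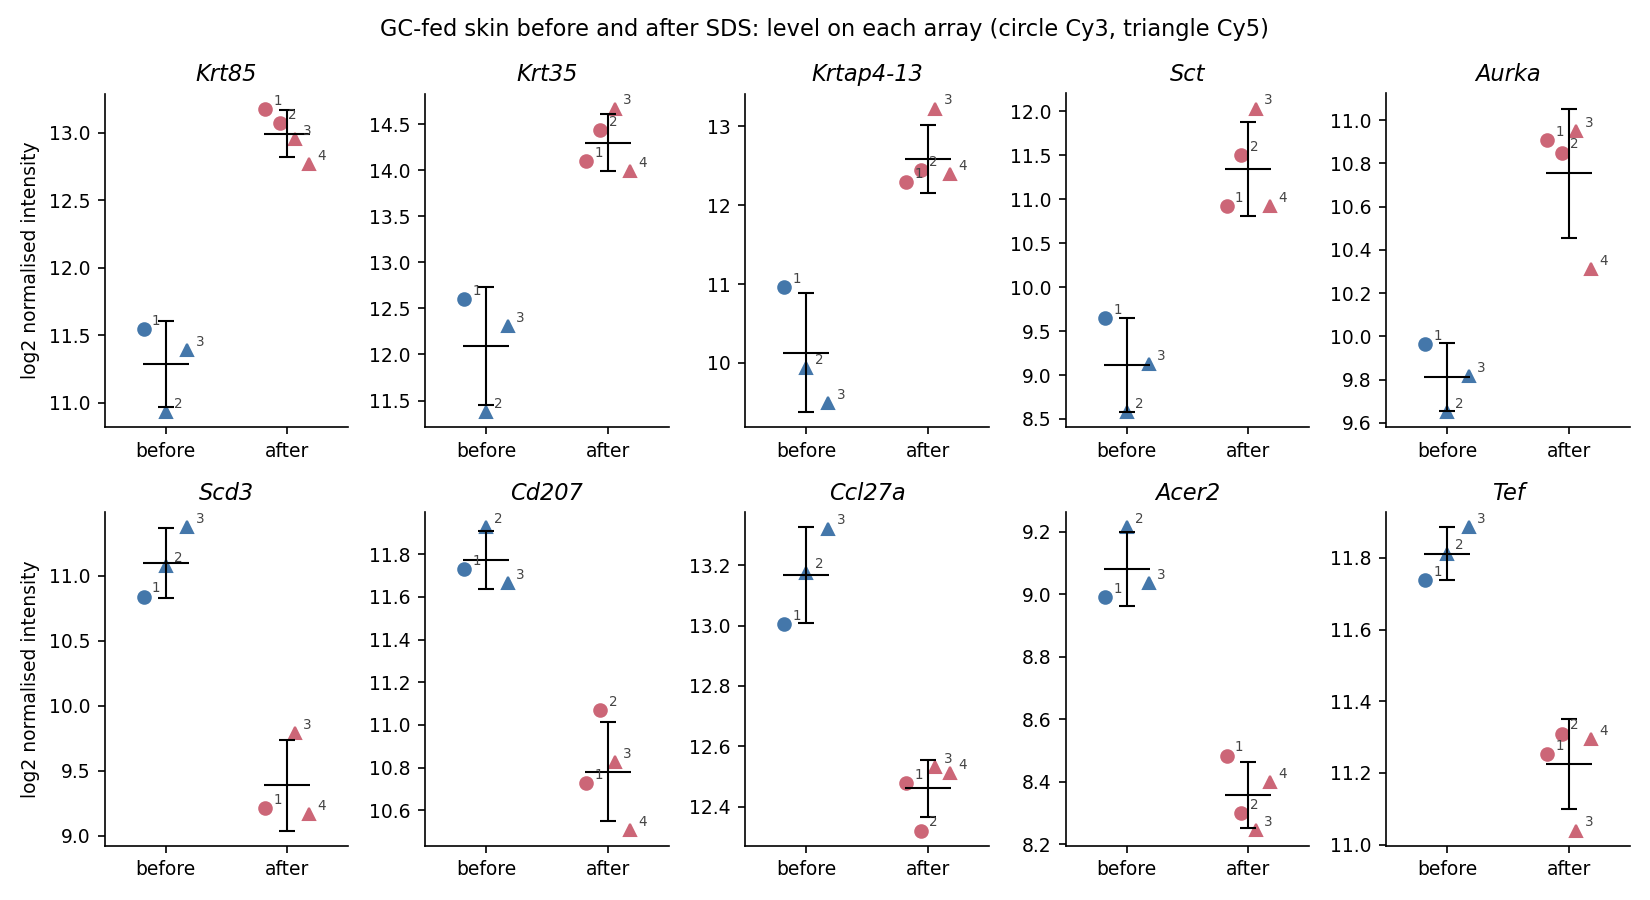
Level (log2 normalised intensity) of 10 genes in each GC-fed sample before (blue) and after (red) SDS; circles are Cy3 and triangles Cy5 channels, numbers are array numbers, and the black bar and whiskers give the group mean and SD. In all 10 panels the groups do not overlap: Krt85, Krt35, Krtap4-13, Sct and Aurka lie higher after SDS, and Scd3 (1 channel missing), Cd207, Ccl27a, Acer2 and Tef lower.

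Among genes of cell division 1 rose, and most others lay above 0 by small amounts. Of 42 cell cycle genes, all measured, 38 had a difference above 0 and the median was 0.39. The groups did not overlap for 26 (11.2% of all genes did so in this direction). Of the 42 genes 1 rose, Aurka, and 21 rose in the 14-channel fit (6.45% of all genes). With 1 array left out of that fit, the count ran from 6 (without before-SDS array 3, 223 of all genes) to 23 (without after-SDS array 4, 1292 of all genes). Aurka, a kinase of the mitotic spindle, was at 9.96, 9.65 and 9.82 before and at 10.91, 10.85, 10.95 and 10.31 after SDS, with array 4 below the other 3. It rose by 0.90 (SE 0.15, 1.87-fold, limma adjusted p = 0.0464). Plk1, which acts with it at entry into mitosis, differed by 0.83 (SE 0.15, adjusted p = 0.0504), Birc5, the survival factor survivin, by 0.83 (SE 0.17, adjusted p = 0.0567) and Mki67, the antigen Ki-67, by 0.74 (SE 0.22, adjusted p = 0.111), all without overlap and all 3 lowest on array 4 after SDS. The mean level of the list was 9.89 to 9.96 before and 10.11 to 10.49 after. Without array 4 its median was 0.47 and 13 members rose, where 339 of all 16468 genes rose.

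No melanocyte marker passed. Of 10 measured, 8 had differences above 0, 6 did not overlap higher (11.2% of all genes) and 0 rose, with a median of 0.50. In the 14-channel fit 3 rose (6.45% of all genes). Dct, a tautomerase of melanin synthesis, was at 11.91, 11.64 and 12.07 before and at 12.92, 13.16, 13.74 and 12.67 after SDS, a difference of 1.26 (SE 0.25, limma adjusted p = 0.0567). Kit, the receptor that melanocytes share with mast cells, differed by 0.29 (SE 0.08, adjusted p = 0.0949) without overlap.

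Among tight junction genes 1 rose, where 0.686% of all genes did. Cldn3, a tight junction claudin, rose by 0.67 (SE 0.12, limma adjusted p = 0.0489), from 8.34 to 8.57 before to 9.01 to 9.35 after SDS, and was the only member to pass of 26 tight junction genes, whose median was -0.08. Cldn1, whose loss in mice opens the epidermal barrier, differed by -0.45 (SE 0.16, adjusted p = 0.161), Cldn23 by -0.74 (SE 0.18, adjusted p = 0.0787) and Ocln, which encodes occludin, by -0.22 (SE 0.17, adjusted p = 0.485). The groups did not overlap higher for 4 of the 26 (11.2% of all genes) and lower for 1 (12.4%). Of the 14 desmosome genes 0 passed, where 1.41% of all genes did, and their median was -0.01.

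Wound keratins did not pass. Krt16, a keratin of activated epidermis and of the follicle, was at 14.14, 14.33 and 14.06 before and at 15.66, 14.13, 14.74 and 15.13 after SDS, so that array 2 lay within the range before treatment, and the difference was 0.75 (SE 0.33, limma adjusted p = 0.241). Krt6a differed by -0.16 (SE 0.31), Krt6b by 0.44 (SE 0.25) and Krt17 by 0.21 (SE 0.09), with overlap in each. Gjb2, a gap junction connexin raised in wounded epidermis, differed by 0.96 (SE 0.19, adjusted p = 0.0567) without overlap. Of the 18 wound keratins, connexins and plasminogen genes 0 passed and 14 lay above 0, with a median of 0.20.

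Structural proteins of the cornified envelope, the cross-linked shell of dead keratinocytes, did not pass either. Of 40 measured, 0 rose and 0 fell (4 fell in the 14-channel fit, against 7.61% of all genes), 5 did not overlap lower (12.4% of all genes), 1 higher, and the median was -0.08. Filaggrin (Flg), which bundles keratin and yields the skin's natural moisturising factors, was at 14.98, 15.20 and 15.38 before and at 15.94, 15.25, 15.32 and 14.45 after SDS. The after-SDS samples lay on both sides of those before, with array 1 the highest and array 4 the lowest, and the difference was 0.01 (SE 0.30, 95% interval -0.70 to 0.71). Loricrin (Lor), the main envelope protein, differed by 0.19 (interval -0.59 to 0.96), involucrin (Ivl), an early scaffold, by -0.39 (interval -0.90 to 0.11), and the cross-linking enzymes Tgm1 and Tgm3 by -0.11 each (intervals -0.53 to 0.30 and -0.41 to 0.19).

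Among envelope genes the smallest p-values belonged to Rptn, a filaggrin relative, at -0.76 (SE 0.14, limma adjusted p = 0.0528), to Scel, the envelope precursor sciellin, at -0.89 (SE 0.23, adjusted p = 0.0908) and to Tgm5 at -0.53 (SE 0.14, adjusted p = 0.0932), each lower without overlap. Casp14, a protease of filaggrin breakdown, stood in the list of suprabasal differentiation, where 0 of 26 genes passed; it was at 11.17, 11.19 and 11.18 before and at 10.66, 10.59, 10.68 and 9.92 after SDS, a difference of -0.75 (SE 0.18, adjusted p = 0.0801). Of the suprabasal keratins, Krt1 differed by 0.16 (SE 0.30), Krt10 by 0.37 (SE 0.29, with 1 channel missing) and Krt2, a keratin of late differentiation, by -1.31 (SE 0.43, adjusted p = 0.137). The basal keratins Krt5 and Krt14 differed by 0.15 (SE 0.16) and -0.05 (SE 0.20). Dst, which anchors keratin to the basement membrane, was lower without overlap at -1.30 (SE 0.24, adjusted p = 0.0523), but its other probes gave -1.11 to -0.03, and Lamb3, a laminin chain of the same anchor, was at -0.60 (SE 0.12, adjusted p = 0.0624).

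Among genes for barrier lipids 2 fell, a ceramidase and a sphingosine phosphate phosphatase. Of 41 ceramide and sphingolipid genes 2 fell (0.729% of all genes) and 0 rose, with a median of -0.13. The groups did not overlap lower for 10 (12.4% of all genes) and higher for 2 (11.2%). In the 14-channel fit 6 fell (7.61% of all genes) and 1 rose (6.45%). Acer2, an alkaline ceramidase of the Golgi, was at 8.99, 9.21 and 9.04 before and at 8.48, 8.30, 8.24 and 8.40 after SDS, and fell by 0.72 on the log2 scale (SE 0.10, limma adjusted p = 0.0423), but its 2 other probes gave -0.27 and 0.04. Sgpp2, a sphingosine phosphate phosphatase, was at 9.02, 9.33 and 9.36 before and at 8.70, 8.38, 8.63 and 8.54 after, and fell by 0.64 (SE 0.11, limma adjusted p = 0.0478). Sphk2, a sphingosine kinase, differed by -0.39 (SE 0.08, adjusted p = 0.0641) without overlap.

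Ugcg, which makes GC in cells, was at 12.25, 12.22 and 12.09 before and at 12.31, 12.43, 12.32 and 12.13 after SDS, a difference of 0.09 (SE 0.09, 95% interval -0.12 to 0.30). Abca12, which loads GC into lamellar bodies, differed by -0.16 (SE 0.23, interval -0.70 to 0.37). The levels before and after SDS overlapped for both.

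Of 28 epidermal lipid barrier genes 25 lay below 0 and 6 did not overlap lower, with a median of -0.27, against 12.4% of all genes that did not overlap lower. By limma 0 fell, and 2 did in the 14-channel fit, where 7.61% of all genes fell. Alox12b, the lipoxygenase that oxidises acylceramide, was at 10.21, 10.10 and 10.04 before and at 9.37, 9.56, 9.62 and 9.08 after SDS, a difference of -0.73 (SE 0.14, limma adjusted p = 0.0523). Fa2h, a fatty acid hydroxylase, differed by -0.74 (SE 0.31, adjusted p = 0.222) and Elovl4, which makes the very long chains of skin ceramide, by -0.48 (SE 0.23, adjusted p = 0.268), both with overlap through array 1 after SDS. The list's mean level was 11.72 to 11.88 before, 11.61 to 11.85 on after-SDS arrays 1 to 3 and 11.29 on array 4. Without array 4 the median was -0.17 and 1 gene of the list fell, where 256 of all 16468 genes fell.

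In cholesterol synthesis 0 of 25 genes passed and 5 did not overlap lower (12.4% of all genes), with a median of -0.16 that became -0.01 without array 4. Cyp51, a sterol demethylase, was at -0.64 (SE 0.17, limma adjusted p = 0.0909) and Acat2, an acetyl-CoA acetyltransferase, at -0.56 (SE 0.14, adjusted p = 0.0838), both lower without overlap. Scd3, a stearoyl-CoA desaturase of the sebaceous gland, gave the largest fall among named genes that passed. It was at 10.84, 11.07 and 11.37 before and at 9.21, 9.79 and 9.16 on after-SDS arrays 1, 3 and 4, the spot of array 2 being left out as an outlier, and fell by 1.71 (SE 0.18, 3.27-fold lower, limma adjusted p = 0.0423). Among 15 sebaceous markers it alone passed; their median was -0.12, and Fads2, a desaturase of sebum lipids, was higher at 0.58 (SE 0.12, adjusted p = 0.0642).

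**Figure D3:**
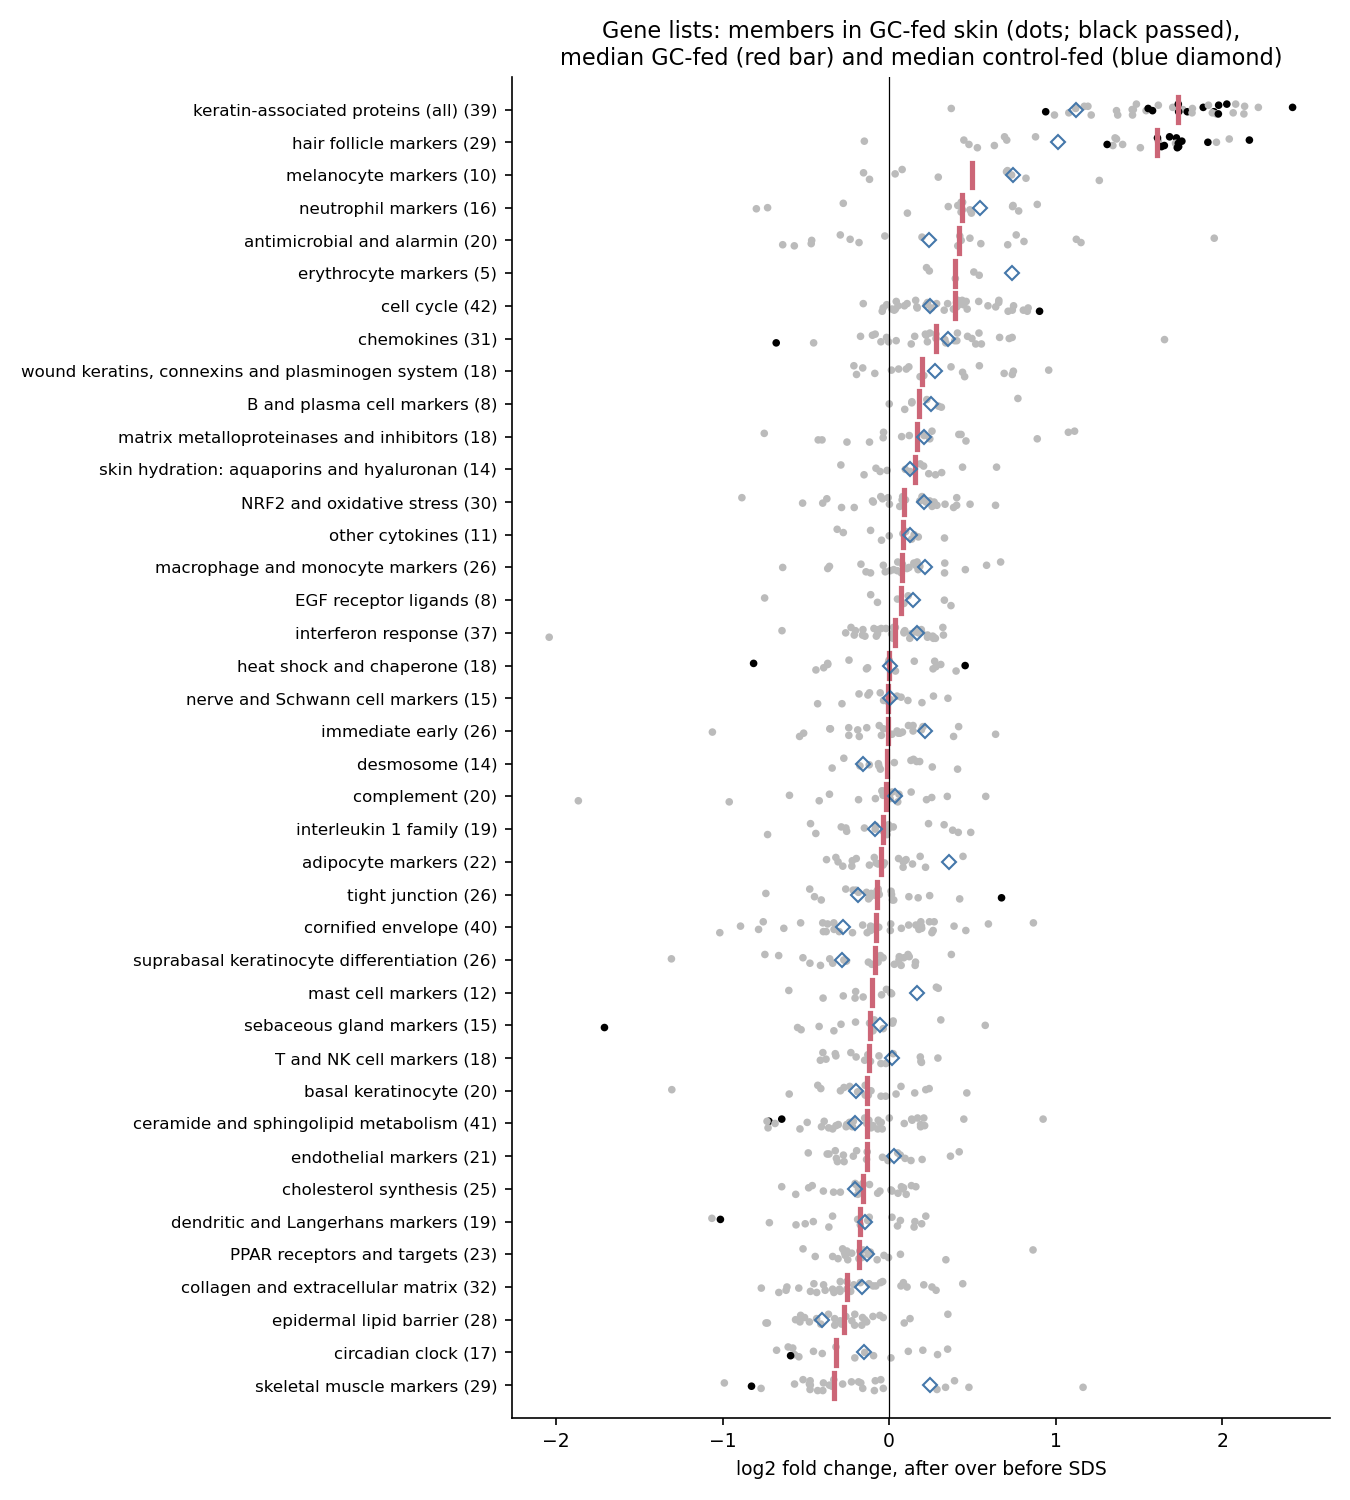
Log2 fold change after over before SDS (horizontal axis) of the measured members of each gene list, with their number in brackets; each dot is a gene in GC-fed skin, black where it passed, the red bar is the list's median in GC-fed and the blue diamond its median in control-fed skin. The keratin-associated protein and hair follicle lists lie highest, with medians of 1.74 and 1.61, and skeletal muscle markers lowest at -0.33.

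A marker gene of Langerhans cells fell. Cd207, which encodes langerin, a lectin of Langerhans cells, was at 11.73, 11.93 and 11.67 before and at 10.73, 11.07, 10.82 and 10.50 after SDS. Every sample after lay below every sample before, and Cd207 fell by 1.01 (SE 0.14, 2.02-fold lower, limma adjusted p = 0.0423). Of 19 dendritic and Langerhans cell markers Cd207 alone passed, 12 lay below and 7 above 0, and the median was -0.17. The groups did not overlap lower for 7 (12.4% of all genes) and higher for 0. In the 14-channel fit 5 fell (7.61% of all genes). H2-Aa, a class II antigen-presentation gene, was at 12.08, 12.55 and 12.57 before and at 11.24, 11.92, 11.17 and 11.07 after SDS (-1.06, SE 0.23, limma adjusted p = 0.0679). The list's mean level was 10.24 to 10.29 before and 9.83 to 10.27 after, array 4 being the highest.

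Ccl27a, a chemokine that keratinocytes make to attract skin-homing T cells, had a level of 13.17 ± 0.16 (SD, n = 3) before and of 12.48, 12.32, 12.53 and 12.51 on the 4 arrays after SDS, without overlap, and fell by 0.68 (SE 0.09, limma adjusted p = 0.0423). Cd3e, a chain of the T cell receptor complex, differed by -0.40 (SE 0.08, limma adjusted p = 0.0653), lower without overlap, while 0 of 18 T and NK cell markers passed. Of 31 chemokines 1 fell (0.729% of all genes) and 0 rose, while 3 did not overlap higher (11.2% of all genes) and 2 lower (12.4%). Their median was 0.28, and -0.04 without array 4. Cxcl13, a B cell attractant, was at 9.04, 8.70 and 9.18 before and at 10.02, 10.96, 10.17 and 11.30 after SDS (1.65, SE 0.33, adjusted p = 0.0567), and Ccl25 at 0.50 (SE 0.09, adjusted p = 0.0523).

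Cytokines and alarmins of acute inflammation differed widely among the after-SDS samples. By limma 0 of 19 interleukin 1 family genes passed, 0 of 11 other cytokines and 0 of 20 antimicrobial and alarmin genes. In the 14-channel fit 1 interleukin 1 family gene rose and 3 fell, 0 other cytokines passed, and 1 antimicrobial and alarmin gene rose. Of all genes 6.45% rose and 7.61% fell in that fit. S100a9, an alarmin of neutrophils and stressed keratinocytes, was at 13.20, 13.29 and 12.62 before and at 12.96, 13.25, 12.56 and 15.09 after SDS, so that only array 4 lay above the range before treatment. Il1b, the inflammasome cytokine, was at 9.42, 9.54 and 8.59 before and at 10.06, 8.93, 8.79 and 10.88 after (0.49, SE 0.54, 95% interval -0.77 to 1.75). Ccl2, a monocyte attractant, was at 11.01, 11.16 and 10.52 before and at 11.28, 10.65, 11.37 and 12.83 after (0.74, SE 0.43, interval -0.26 to 1.73). Differences for S100a8, Cxcl1, Cxcl2, Tnf and Il1a were 0.41, 0.28, 0.41, 0.10 and -0.15, with SE from 0.17 to 0.60 and overlap in each. Il6 was well above background in 1 sample before and 2 after SDS, and differed by 0.33 (SE 0.17). Tslp, a keratinocyte cytokine of barrier damage, differed by 0.00 (SE 0.13), and Lcn2, an iron-binding antimicrobial protein, by -0.03 (SE 0.19). Chil3, a chitinase-like protein of activated macrophages, was at 9.30, 8.50 and 8.47 before and at 10.85, 9.42, 10.07 and 12.30 after SDS (1.95, SE 0.64, limma adjusted p = 0.137).

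Markers of myeloid cells moved with array 4. The mean level of macrophage and monocyte markers was 11.34 to 11.53 before, 11.16 to 11.31 on after-SDS arrays 1 to 3 and 12.10 on array 4, and that of neutrophil markers was 9.12 to 9.45 before, at most 9.76 on arrays 1 to 3 and 10.46 on array 4. Their medians were 0.08 and 0.44 with array 4, and -0.19 and 0.07 without it. Of the 26 macrophage markers 0 passed and 1 did not overlap higher, Aif1, a calcium-binding protein of macrophages (0.58, SE 0.13, adjusted p = 0.0684), and of the 16 neutrophil markers 0 passed. The part of these cells in the values of the cytokine genes was not tested.

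**Figure D4:**
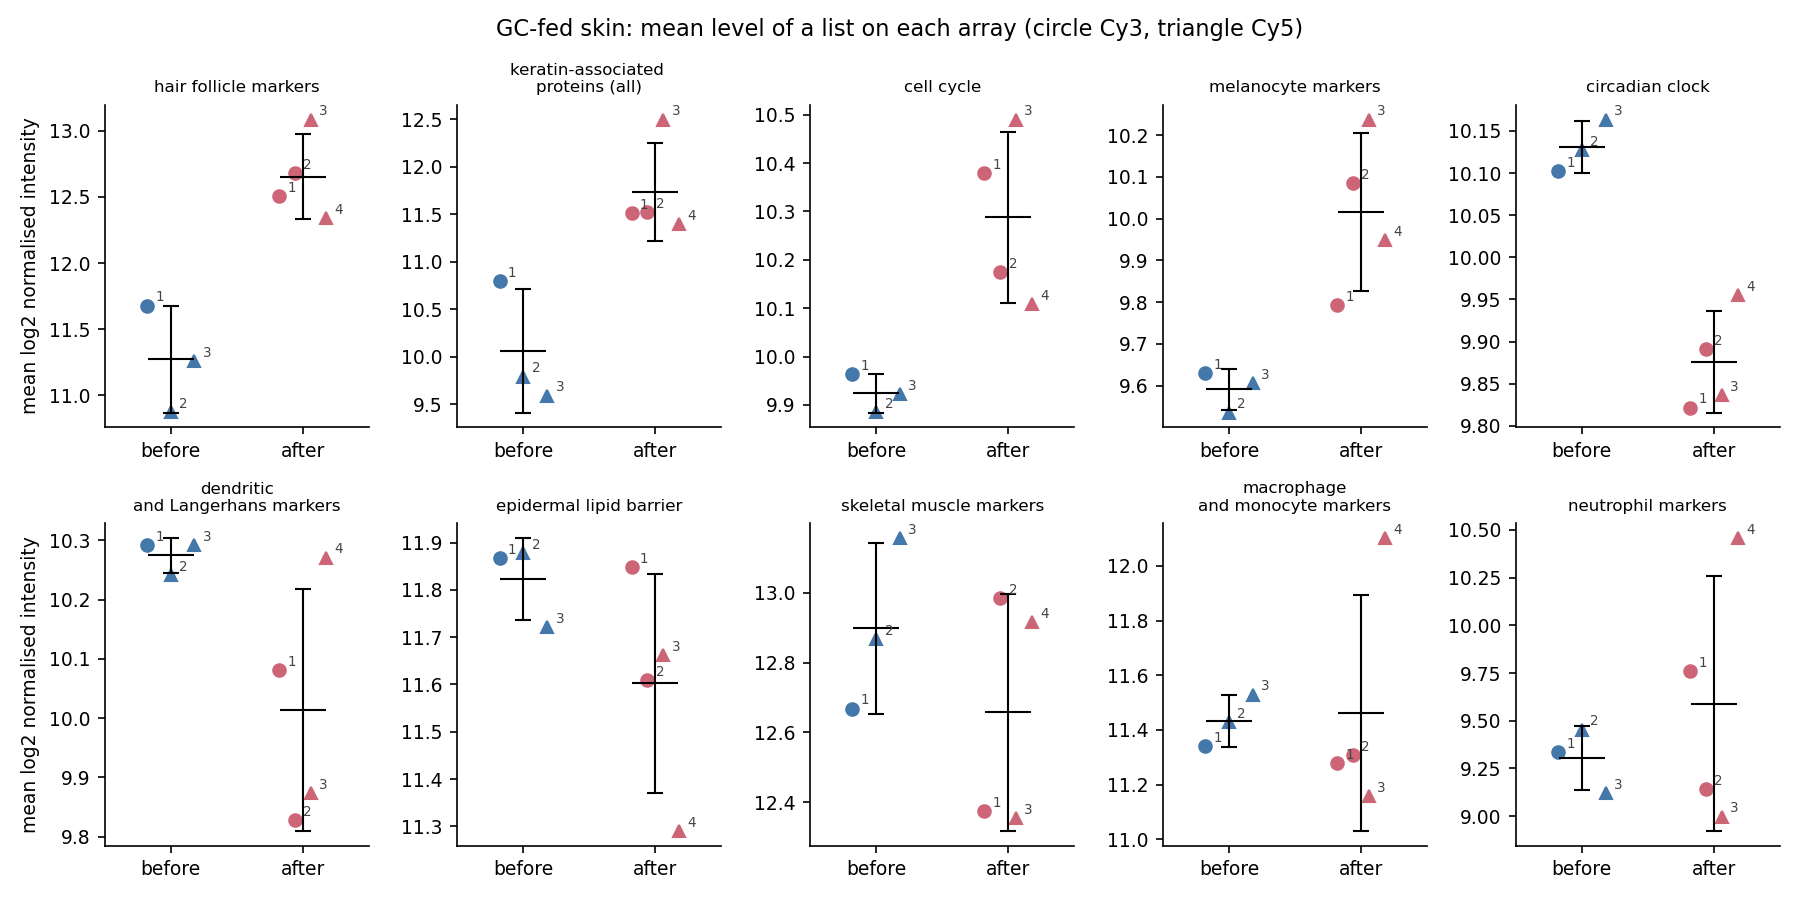
Mean level (log2 normalised intensity over the measured members) of 10 gene lists in each GC-fed sample before (blue) and after (red) SDS; circles are Cy3 and triangles Cy5 channels, numbers are array numbers, and bar and whiskers give group mean and SD. Hair follicle, keratin-associated protein, cell cycle, melanocyte and clock lists do not overlap between the groups, while array 4 lies far above the rest for macrophage (12.10) and neutrophil (10.46) markers.

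Single genes of striated muscle fell. Mb, the oxygen carrier myoglobin, was at 14.44, 14.26 and 14.39 before and at 13.93, 13.59, 13.46 and 13.35 after SDS, and fell by 0.83 (SE 0.11, limma adjusted p = 0.0423). Outside the fixed list of muscle markers, Csrp3, a protein of the muscle Z-disc, was at 12.69, 12.79 and 12.95 before and at 12.05, 11.79, 11.36 and 10.99 after, and fell by 1.32 (SE 0.21, limma adjusted p = 0.0423). Myom3, a titin-binding protein of the M-band, fell by 1.21 (SE 0.20, limma adjusted p = 0.0433), and Cryab, a small heat shock protein abundant in muscle, by 0.81 (SE 0.13, limma adjusted p = 0.0433), but the other Cryab probe gave 0.05. Of 29 muscle markers in the list Mb alone passed, 4 did not overlap lower, a share close to the 12.4% of all genes, and the median was -0.33, or -0.41 to -0.04 with 1 array left out. Acta1, skeletal muscle actin, overlapped between the groups (-0.40, SE 0.24), and the list's mean level did so too, at 12.67 to 13.16 before and 12.35 to 12.99 after SDS.

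Among clock genes 1 fell. Of 17 measured, 12 lay below 0, 9 did not overlap lower (12.4% of all genes), 1 higher, and the median was -0.32. Tef alone fell, and 5 fell in the 14-channel fit (7.61% of all genes). Tef, a transcription factor that carries clock time to output genes, was at 11.74, 11.81 and 11.89 before and at 11.25, 11.31, 11.04 and 11.30 after SDS, and fell by 0.59 (SE 0.10, limma adjusted p = 0.0461), while its 3 other probes gave -0.17 to -0.06. Cry2, a repressor of the clock, differed by -0.58 (SE 0.14, adjusted p = 0.0798), and Nr1d1, the nuclear receptor REV-ERB alpha, by -0.40 (SE 0.09, adjusted p = 0.0744), both without overlap. The list's mean level was 10.10 to 10.16 before and 9.82 to 9.95 after. The labels give no hour of sampling.

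No gene in the list of dermal collagen and matrix genes passed. Of 32 collagen and matrix genes 25 lay below 0, 0 passed and 7 did not overlap lower (12.4% of all genes), with a median of -0.25. In the 14-channel fit 7 fell (7.61% of all genes). Eln, which encodes elastin, was at -0.62 (SE 0.13, limma adjusted p = 0.0613), Col5a2, a chain of collagen V, at -0.77 (SE 0.20, adjusted p = 0.0878), while Col1a1, a chain of collagen I, overlapped (0.07, SE 0.17) and its other probes gave -1.03 to -0.46. Without array 4 the list's median was -0.42 and 5 of its genes fell, where 256 of all 16468 genes fell. In a separate list of 18 matrix metalloproteinases and inhibitors 0 passed, and Mmp2, a gelatinase of fibroblasts, was lower without overlap (-0.75, SE 0.17, adjusted p = 0.0759). Aqp3, the water and glycerol channel of the epidermis, was at 14.29, 14.14 and 14.13 before and at 15.52, 14.85, 15.01 and 14.22 after SDS, with array 4 inside the range before treatment (0.64, SE 0.23, adjusted p = 0.162). The adipocyte hormone gene Adipoq differed by 0.10 (SE 0.11).

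Single genes outside these groups also fell. Pink1, a kinase that guards mitochondria, was at 12.03, 12.14 and 11.68 before and at 11.11, 10.93, 10.65 and 10.59 after SDS, and fell by 1.18 (SE 0.13, 2.26-fold lower, limma adjusted p = 0.0423). The calcium-activated chloride channel regulators Clca3a1 and Clca3a2 fell by 1.21 (SE 0.21) and 1.12 (SE 0.20); as close paralogs they may share hybridisation signal. Fbxo2, which marks glycoproteins for degradation, fell by 1.18 (SE 0.17), but its 2 other probes gave -0.03 and 0.12, and Srrm4, a splicing factor, by 1.09 (SE 0.17) with -0.09 from its other probe. Wfdc21, a small secreted protein with a protease-inhibitor fold, fell by 1.04 (SE 0.14). Among chaperones Hsp90b1, which folds proteins in the endoplasmic reticulum, rose from 14.56 to 14.58 before to 14.93 to 15.10 after (0.46, SE 0.08, limma adjusted p = 0.0475; its other probe gave 0.44), and Hspa1a, the inducible heat shock protein of the cytosol, was lower without overlap (-0.44, SE 0.10, adjusted p = 0.0787).

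The last comparison asks whether GC-fed skin differed from control-fed skin in this response. In the same fit to the 7 control-fed channels of the same arrays 2510 genes passed (15.2%), against 233 in GC-fed skin. The difference of the effects, tested on the ratios within arrays, passed for 0 genes (lowest adjusted p 1 by limma; 195 had an unadjusted p under 0.05), and for 0 genes as an interaction in the 14-channel fit. The numbers that passed therefore do not show that the response differed by diet. Without after-SDS array 4, 57 genes passed for the difference, and 124 did with its channels exchanged.

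For the members named here the effects in both diets stood side by side. Krt85 differed by 1.65 in GC-fed and 1.49 in control-fed skin, Cd207 by -1.01 and -0.86, Tef by -0.59 and -0.56, and Pink1 by -1.18 in both. Krtap4-13 differed by 2.42 and 1.12, a difference between diets of 1.30 with an SE of 0.99. The hair follicle median was 1.61 in GC-fed and 1.01 in control-fed skin, where 8 rather than 26 members did not overlap, and the skeletal muscle median was -0.33 and 0.25; these gaps between medians were not tested. None passed by limma (adjusted p = 1 for each), and the smallest p-values of the difference belonged to Wwc1, a regulator of Hippo signalling (0.77 in GC-fed, -0.35 in control-fed), Slit3, a guidance ligand (0.44 and -0.49), Unc45a, a myosin chaperone (-0.01 and -0.81), Pcx, pyruvate carboxylase (0.10 and 0.63), Cdkn2c, a cell cycle inhibitor (0.21 and 0.71) and Gpd1, a glycerol phosphate dehydrogenase (-0.03 and 0.51).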

How the data were processed

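RNA of 7 GC-fed and 7 control-fed skin samples was measured on 7 dual-colour Agilent whole mouse genome arrays. The deposited spot intensities came from Agilent Feature Extraction 9.1.3.1, per the file headers; the authors' deposited gene-level table holds processed intensities, used as an alternative, and 7 columns of log2 ratios deposited by the authors were not used. Mean signals were background-corrected (normexp, offset 50), loess-normalized within arrays with control spots at weight 0, and Aquantile-normalized between arrays in R 4.3.3 with limma 3.58.1. The 7 GC-fed channels were fitted with group and dye as terms; the diet difference used the log2 ratios. Probes well above background in at least 3 GC-fed channels were kept, and the probe with the highest mean stood for a gene, so that 16469 genes were tested, with Benjamini-Hochberg adjustment at 0.05. Of 41174 probes, 22951 were named by RefSeq accession, 6659 by current and 3109 by older symbol, and 8455 kept the file's name. Genes with an outlier-flagged spot (47) lack a channel. The number of arrays limits the precision.

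Named genes were the 10 largest rises and falls that passed without overlap and had ordinary symbols, the members of each of 39 lists with the smallest p, a fixed set of barrier and inflammation genes, and the smallest p of the diet difference. Of 950 list members 849 were measured. The comparison and lists were chosen with earlier results of these data known. The fit was tested on simulated data. Alternatives were the background correction, normalization, probe filter and choice, dye term, replicate block, 14-channel fit, array 4 exchanged, and each array left out; the Cy5 channels alone and the 14-channel fit without each array were added after seeing the data. Promoters are from RefSeq's GRCm38.p6 table. Some genes that this rule names are not reported here.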

Additional observations from a re-analysis of the deposited data

Results flagged for a closer look

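Among the 4 samples after SDS, the gap of the most distant sample to its neighbour was compared with the range of the group, and a share above Dixon's critical value for 4 samples was taken as far from the others. Of the 101 named genes with 4 values 8 were past this limit, and 3 of 40 list means; chance gives about 1 in 20 groups. The share was 0.831 for Krtap4-13 and 0.912 for Krtap26-1, both through a high array 3, as it was for the mean level of keratin-associated proteins, at 0.889. It was 0.843 for Aurka and 0.885 for Casp14, both through a low array 4. It was 0.841 for the mean level of macrophage and monocyte markers and 0.968 for that of NRF2 and oxidative stress genes, both through a high array 4. It was 0.851 for Hspa1a and 0.869 for Tgm1 through a low array 4, 0.882 for Mmp2 through a low array 3 and 0.872 for Tslp through a high array 2.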

How the results depend on the processing

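The 233 genes that passed kept their direction under each alternative that gave them a value, but their number moved; where no cause is named, it was not tested. By limma, 728 genes (360 higher, 368 lower) passed without the dye term, 14 (11 and 3) with Agilent's processed signals, 63 (29 and 34) with the mean of a gene's probes, 62 (52 and 10, of 10141 tested) in the authors' deposited gene-level intensities, 2309 (1060 and 1249) in the 14-channel fit, 1287 (653 and 634) with the channels of array 4 exchanged, 1 (1 and 0) with quantile normalization of the GC-fed channels alone, and 0 with equal medians (lowest adjusted p 1) or among the Cy5 channels alone (0.238), against 3663 with an unadjusted p under 0.05 in the main comparison. An offset of 16, quantile normalization of 14 channels, no filter on dim probes and a filter on all 7 channels gave 197, 183, 266 and 217. With 1 array left out, 0 to 595 genes passed (0 to 339 higher, 0 to 256 lower), and 569 to 2788 in the 14-channel fit (223 to 1292 higher, 346 to 1496 lower). For the difference between diets 0 passed, 124 with the channels of array 4 exchanged (lowest adjusted p 0.00161), and 0 to 57 with 1 array left out.

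Same-numbered samples before and after SDS deviated together at r = 0.09, -0.2 and -0.13, so the numbers were not taken as pairs. A replicate block gave 229 genes (143 higher, 86 lower), 86 of them shared with the 233, and 0 for the difference between diets (lowest adjusted p 0.0641).

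The differences that changed sign belonged to genes that did not pass. Without the dye term, sign changed for Tslp at -0.02. With Agilent's processed signals, sign changed for Flg at -0.09, Pcx at -0.04, Tnf at -0.11, Tslp at -0.02 and Unc45a at 0.01. With an offset of 16, sign changed for Tslp at 0.00. With quantile normalization of 14 channels, sign changed for Col1a1 at -0.05, Flg at -0.04 and Tslp at -0.03. With quantile normalization of the GC-fed channels alone, sign changed for Col1a1 at -0.06, Flg at -0.02 and Tslp at -0.08. With equal medians, sign changed for Gpd1 at 0.10, Krt14 at 0.16 and Unc45a at 0.05. With the mean of a gene's probes, sign changed for Col1a1 at -0.47. In the authors' deposited gene-level intensities, sign changed for Col1a1 at -0.02, Gpd1 at 0.04, Il1a at 0.18, Krt14 at 0.12, Slit3 at -0.01, Tgm1 at 0.03, Tslp at -0.02 and Unc45a at 0.08. With the replicate block, sign changed for Abca12 at 0.27, Adipoq at -0.01, Il1a at 0.02, Krt14 at 0.21, Lcn2 at 0.13, S100a9 at -0.15, Tgm1 at 0.13, Tgm3 at 0.05, Tnf at -0.04, Tslp at -0.10 and Unc45a at 0.25. With the channels of array 4 exchanged, sign changed for Abca12 at 0.06, Cxcl1 at -0.07, Cxcl2 at -0.15, Il1a at 0.01, Il1b at -0.04, Krt14 at 0.04, S100a8 at -0.25, S100a9 at -0.19, Tgm1 at 0.06, Tgm3 at 0.03 and Tnf at -0.28. In the Cy5 channels alone, sign changed for Col1a1 at -0.07, Flg at -0.40, Gpd1 at 0.02, Krt10 at -0.18, Krt5 at -0.06, Lcn2 at 0.08, Lor at -0.36, Tslp at -0.12 and Unc45a at 0.10. With 1 array left out, ranges that crossed 0 were Col1a1 -0.07 to 0.25, Flg -0.40 to 0.33, Gpd1 -0.09 to 0.02, Krt10 -0.18 to 0.93, Krt5 -0.06 to 0.27, Lcn2 -0.14 to 0.11, Lor -0.36 to 0.54, Tslp -0.12 to 0.14, Unc45a -0.11 to 0.12, Krt14 -0.27 to 0.06, Tnf -0.27 to 0.40, Krt1 -0.05 to 0.37, Krt6a -0.39 to 0.06, Abca12 -0.33 to 0.09, Cxcl1 -0.08 to 0.60, Cxcl2 -0.22 to 1.04, Il1a -0.30 to 0.00, Il1b -0.10 to 0.94, S100a8 -0.20 to 0.83, S100a9 -0.25 to 1.02, Tgm1 -0.28 to 0.10 and Tgm3 -0.24 to 0.02. In simulated data of this design the share of changed genes recovered was 31.3%, 71.6% and 92.4% at log2 differences of 0.5, 1 and 2, with 3 unchanged genes called. Smaller differences were thus often missed by 4 against 3 simulated arrays. The simulated errors were independent between genes and arrays and held no effect of the slide. The shares and the 3 calls are therefore not error rates of the real comparison.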

Other observations

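Several transcripts outside the lists, chosen after their values were seen, passed with small errors in GC-fed skin. Fgf5, a growth factor that ends the growth phase of the hair follicle, was at 8.34, 8.08 and 8.18 before and at 9.74, 9.35, 9.90 and 9.58 after SDS (1.45, SE 0.15, limma adjusted p = 0.0423), and at 0.96 in control-fed skin. Slc2a1, the glucose transporter GLUT1, rose by 0.74 (SE 0.08, limma adjusted p = 0.0423), by the same 0.74 in control-fed skin. Twsg1, a regulator of bone morphogenetic proteins, fell by 0.88 (SE 0.08, limma adjusted p = 0.0423), with -0.35 from its other probe.

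The largest difference of all did not pass. Slc4a7, a bicarbonate transporter, was at 8.81, 9.06 and 10.08 before and at 12.56, 16.35, 14.25 and 11.46 after SDS (4.23, SE 1.06, limma adjusted p = 0.0856), with 4.06 in control-fed skin. Ifi27l2a, an interferon-induced gene, was at 12.73, 14.35, 9.71 and 9.18 after SDS against 13.04 to 13.32 before (-2.04, SE 0.84, adjusted p = 0.21). C4b, a complement component, was at 9.76, 13.72, 12.22 and 10.17 after against 12.94 to 13.62 before (-1.87, SE 0.92, adjusted p = 0.283).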
